A study of Mus musculus with 6 samples.

Results

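The genes of the unfolded protein response and the heat shock response were followed in type 2 innate lymphoid cells (ILC2s) of mouse visceral adipose tissue (VAT) after engagement of GITR, a costimulatory receptor of the TNF receptor family. The set was given by name and held 39 genes of the 53278 in the table. It comprised 14 chaperones and folding enzymes of the endoplasmic reticulum (ER), 6 sensors and regulators of the ER stress pathways, 7 genes of ER-associated degradation, 2 subunits of the translocon, 8 cytosolic heat shock genes and 2 mitochondrial chaperonins. All 39 were found in the table and all 39 passed the filter on low counts.

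Cells that secrete large amounts of protein depend on the ER to fold it. When unfolded protein accumulates there, 3 membrane sensors act, namely IRE1 (Ern1), PERK (Eif2ak3) and ATF6 (Atf6). IRE1 splices the mRNA of Xbp1 into a form that encodes a transcription factor, PERK slows translation, and a cleaved fragment of ATF6 enters the nucleus, so that the genes of chaperones, folding enzymes and degradation factors are transcribed. The heat shock response is the cytosolic counterpart, in which HSF1 (Hsf1) drives the genes of the HSP70, HSP90 and HSP40 families. ILC2s release IL-5, IL-13 and other cytokines when activated, and all of these pass through the ER.

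The ILC2s came from C57BL/6 mice aged 8 weeks that had received 3 intraperitoneal injections of 1 µg recombinant mouse IL-33. They were sorted as lineage-negative cells, and kept in culture with recombinant mouse IL-2 and IL-7 at 10 ng/mL each. The sample labels and the methods give 48 h of culture, but the results text of the study gives a shorter time, so the time point is uncertain. In the DTA-1 group the medium also held 5 µg/mL of DTA-1, an agonistic antibody to GITR, and in the isotype control group it held a rat IgG2b antibody in its place. The columns of this group in the table carry PBS in their names, and they were assigned through the sample descriptions, which repeat those names for samples whose title and treatment read isotype. IL-33, IL-2 and IL-7 were thus common to both groups, and no unstimulated cells enter the comparison. RNA-seq libraries were made from 10 ng of RNA, 3 per group, and nothing in the labels says that the 3 came from separate animals or cultures, so p-values measure only the spread between these samples.

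Total expected counts ranged from 30569351 to 35131329 per library, and a count of 0 allows up to 3 counts, or 0.0854 to 0.0981 CPM. Levels are given as normalised counts, which are CPM (counts scaled to the library total) after TMM scaling. The ILC2 markers (Gata3, Il1rl1, Rora, Il7r, Kit, Klrg1, Il5, Il13, Areg and Ptprc) were all detected and summed to 9962 to 10688 normalised counts in isotype control and to 10796 to 14511 with DTA-1. Markers of other cell types were mostly present at low levels. Over the 6 libraries, T cell markers summed to 39.8 to 53.1 normalised counts, endothelial markers to 10.6 to 24.4, B and plasma cell markers to 12.1 to 16.2 and macrophage markers to 1.20 to 4.28. Within these lists Cd8a, Cdh5, Ms4a1 and C1qb were at 0 in all 6 libraries, as were S100a8, S100a9 and Retnlg of neutrophils and Msln and Upk3b of mesothelial cells. The library labelled DTA-1 replicate 1 lay close to the isotype control libraries on one axis of a principal component analysis and apart from all others on the next. Its score on the first principal component (26.2% of the variance) was −9.56, where the isotype control scores ran from −25.5 to −15.6 and the other DTA-1 libraries scored 40.2 and 28.6. It scored −45.4 on component 2 (21.3% of the variance), below the scores of the isotype control libraries, 1.16 to 21.1, and of the other DTA-1 libraries, −6.76 and 20.0. Pairs of libraries were also compared by chi-squared per degree of freedom, where a smaller value means more alike. Paired with isotype control replicates 1, 2 and 3, this library gave 11.9, 10.6 and 10.1. Pairs of isotype control libraries gave larger values, 18.4, 12.9 and 12.1. Paired with DTA-1 replicates 2 and 3 it gave 29.1 and 30.6, and those replicates gave 12.0 with each other. The reason was not tested. Values are therefore given with all 6 libraries and, for the counts, the medians and most single genes, also without DTA-1 replicate 1. Because this library was singled out by its own values, adjusted p-values without it are descriptive and give no independent support. By edgeR, 253 genes had an adjusted p under 0.05 without it, and 0 with any other library left out. In these bulk samples, fewer cells of a type and less RNA per cell cannot be told apart.

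Promoters of the set were searched for the elements to which ATF6, XBP1 and HSF1 are known to bind, since they show which members share a recognisable control sequence. RefSeq promoter sequences (GRCm38.p6, from 250 bases before to 50 bases after the gene start) were matched for 29 of the 39 genes. The ER stress response element (ERSE), taken as the boxes CCAAT and CCACG with 9 bases between them and searched on both strands, was present in 39 of 32851 promoters (0.119%) and in 9 of the 29 genes. Below, each ERSE is shown with 5 bases on either side, on the strand on which it reads CCAAT to CCACG, and the capitals mark these 2 boxes.
Hspa5, chr2:34772020-34772048, plus strand: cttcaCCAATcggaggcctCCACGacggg
Calr, chr8:84847070-84847098, plus strand: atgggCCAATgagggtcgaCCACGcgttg
Hsp90b1 (upstream copy), chr10:86705633-86705661, minus strand: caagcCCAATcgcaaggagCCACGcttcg
Hsp90b1 (downstream copy), chr10:86705528-86705556, plus strand: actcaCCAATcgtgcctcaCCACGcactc
Canx, chr11:50325795-50325823, minus strand: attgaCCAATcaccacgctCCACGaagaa
Pdia6, chr12:17266486-17266514, plus strand: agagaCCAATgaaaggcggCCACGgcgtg
Dnajc3, chr14:118937822-118937850, plus strand: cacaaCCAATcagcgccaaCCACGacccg
Creld2, chr15:88819515-88819543, minus strand: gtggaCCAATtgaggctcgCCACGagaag
Derl3, chr10:75893237-75893265, minus strand: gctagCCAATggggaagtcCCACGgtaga
Syvn1, chr19:6046527-6046555, plus strand: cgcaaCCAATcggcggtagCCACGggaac
The boxes are constant by the search itself, and the 9 bases between them differed from gene to gene. The element lay closest to the start in Syvn1, 44 to 26 bases before it, and in Hspa5, 65 to 47 bases before it. Hsp90b1 held 2 copies in opposite orientation, 212 to 194 and 107 to 89 bases before the start. They are shown in place in the stretch from 250 to 66 bases before the start, read on the strand of the gene, where the capitals mark the boxes of both copies.
Hsp90b1, chr10:86705510-86705694, minus strand: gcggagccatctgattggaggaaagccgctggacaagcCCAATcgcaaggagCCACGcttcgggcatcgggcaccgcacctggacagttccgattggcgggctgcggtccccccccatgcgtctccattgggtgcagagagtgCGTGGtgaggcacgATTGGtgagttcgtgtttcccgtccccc
In Calr the element also ran against the gene, 162 to 144 bases before its start. The stretch from 250 to 21 bases before the start is shown on the strand of the gene, with the boxes in capitals.
Calr, chr8:84846952-84847181, minus strand: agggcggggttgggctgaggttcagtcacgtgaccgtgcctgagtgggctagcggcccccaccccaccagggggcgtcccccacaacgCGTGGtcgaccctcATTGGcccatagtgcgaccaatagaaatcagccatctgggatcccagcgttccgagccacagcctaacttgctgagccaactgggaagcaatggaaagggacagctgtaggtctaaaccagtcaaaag

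The other elements were rarer in the set. ERSE-II (ATTGG and CCACG with 1 base between them, both strands, in 0.0365% of promoters) was found in Herpud1 and Dnajb11. It is shown for Herpud1, a factor that recruits substrates to the degradation complex, because it lies 52 to 42 bases before the start, with the boxes in capitals.
Herpud1, chr8:94386372-94386392, plus strand: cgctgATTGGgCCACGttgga
The core TGACGTG (both strands, in 2.01% of promoters) was found in Hspa5 alone, and the ATF4 element, taken as TGATG and AA with 1 base between them (both strands, in 3.97% of promoters), in Herpud1 alone. The heat shock element, taken as the units GAA, TTC and GAA or TTC, GAA and TTC with 2 bases between units, on both strands, was present in 0.603% of promoters. It was found in Hsph1 and in the promoter region that Hspd1 and Hspe1 share, since these genes lie head to head on chromosome 1. There both forms overlap, and the repeated GAA and TTC units of one of them are in capitals.
Hspd1 and Hspe1, chr1:55088059-55088081, plus strand: ttctaGAAccTTCcgGAAggccc
A match, or the lack of one, is only a description of these letters in these windows. Hspa1a, Hspa1b and Dnajb1 were matched to promoters and held neither form of the heat shock element, and looser forms were not searched. Atf6, Derl1, Hsf1, Hsp90aa1, Hsp90ab1, Hspa8, Hyou1, Manf, Ppp1r15b and Sec61a1 had no promoter entry.

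Before any comparison, the genes were ranked by mRNA level, which does not measure how strongly ILC2s use this machinery. Per kilobase of exon, the isotype control mean was highest in Pdia3, a disulphide isomerase of glycoproteins, at 604 normalised counts per kb. Hspa8, the constitutive HSP70 of the cytosol, followed at 600.2 and Hspa5 (BiP), the HSP70 of the ER, at 429. The ER member of the HSP90 family, Hsp90b1, reached 354 and its cytosolic relative Hsp90ab1 reached 344 normalised counts per kb. Xbp1 was sixth of the 39 at 331 normalised counts per kb, far above the sensors. Ern1 was at 6.81, Eif2ak3 at 8.25 and Atf6 at 4.66 on the same scale. The inducible HSP70 genes Hspa1a and Hspa1b were near the bottom, at 1.17 and 1.95, and Derl3 was last at 0.356.

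With DTA-1, 33 of the 39 genes had a fitted change above 0 and 6 below it, but none passed the test. Of all 14361 genes tested, 48.1% were fitted above 0. A gene was called when edgeR's quasi-likelihood test gave it a Benjamini-Hochberg adjusted p under 0.05 and its change reached 1.5-fold. No member was called, beside 0.0% of all genes, and the smallest adjusted p of a member was 0.627. At an unadjusted p under 0.05, 13 members were higher and 0 lower, beside 4.11% of all genes higher and 3.11% lower. DESeq2's Wald test put 14 members at an unadjusted p under 0.05, all higher, beside 1232 of 25251 genes in either direction. By limma-trend it was 13 members, all higher, beside 1074 of 14361 genes in either direction. Neither tool gave a member an adjusted p under 0.05, and the smallest were 0.0626 and 0.616. The groups did not overlap in 3 members, Hspa5, Manf and Derl3, all higher with DTA-1, beside 5.29% of all genes. They were lower without overlap in 0 members, beside 6.04% of all genes.

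The median log2 fold change of the 39 genes was 0.14, beside −0.01 over all genes tested. Without DTA-1 replicate 1 it was 0.22, beside −0.01 over all genes, and 10 members had an adjusted p under 0.05 by edgeR, all higher. Of all genes, 1.35% were higher and 0.342% lower at that threshold. None of the 10 reached 1.5-fold, so 0 members were called there, beside 0.744% of all genes. The 10 were Hspa5, Calr, Hsp90b1, Pdia4, Pdia6, Dnajc3, Manf, Creld2, Edem1 and Hspa8, of which 8 are ER chaperones or folding enzymes. In each of the 10 this was the lowest adjusted p over the alternatives tried, and the highest was 0.999.

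The DTA-1 libraries differed from each other. DTA-1 replicate 2 lay above every isotype control library in 29 of the 39 genes and replicate 3 in 28, beside 27.5% and 27.6% of all genes tested. The library labelled DTA-1 replicate 1 did so in 3 genes, beside 22.8% of all genes, and lay below every isotype control library in 7 (17.9%), beside 23.2% of all genes.

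**Figure D1:**
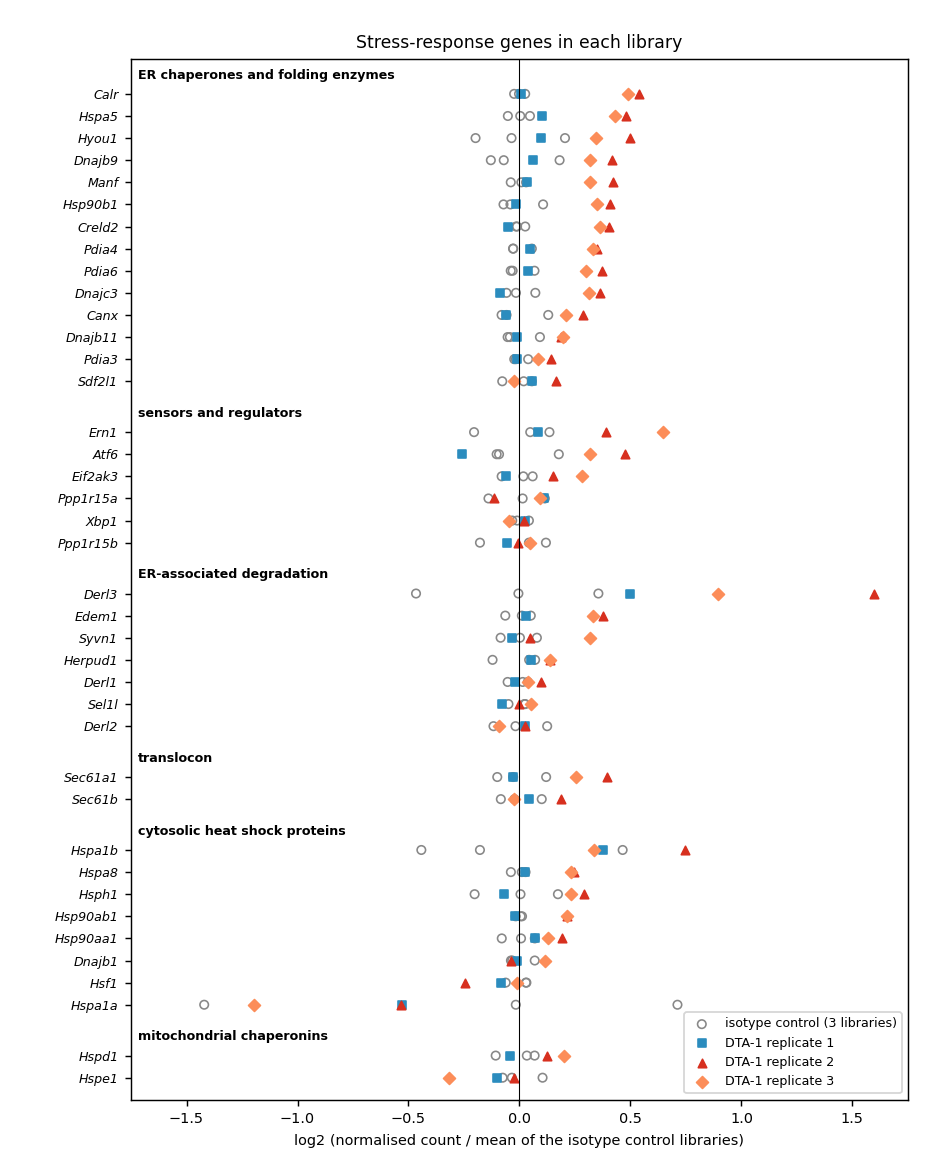
Each row is 1 gene and each point 1 library, placed at log2 of its normalised count over the mean of the 3 isotype control libraries and grouped by role. DTA-1 replicates 2 and 3 stand to the right of the isotype control libraries in most rows of the ER chaperones, and the library labelled DTA-1 replicate 1 stands among the isotype control libraries.

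Among the ER chaperones and folding enzymes, all 14 genes were fitted higher with DTA-1, with a median log2 fold change of 0.25. Of these, 9 had an unadjusted p under 0.05, beside 4.11% of all genes higher. None passed the adjusted test with all 6 libraries. Without DTA-1 replicate 1 the median was 0.35, and 8 passed it, beside 1.35% of all genes higher. The summed level of the 14 was 8788, 9368 and 8916 normalised counts in isotype control and 9141, 11547 and 11086 with DTA-1. The sum of the library labelled DTA-1 replicate 1 lay within the isotype control range, and the other DTA-1 libraries lay above it in 14 and 13 of the 14 genes.

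**Figure D2:**
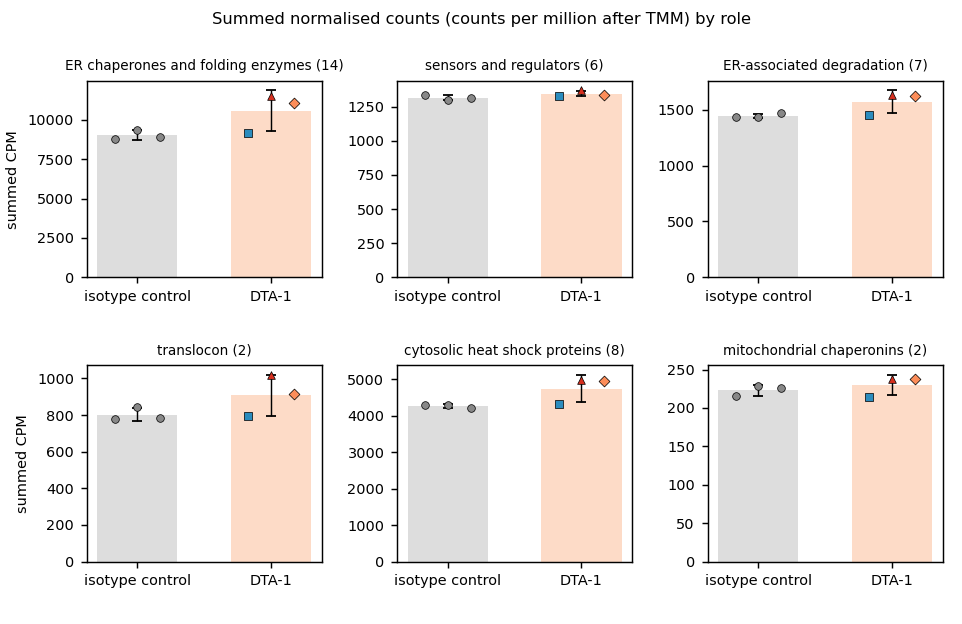
Summed normalised counts (CPM after TMM) of the genes of each role, with the number of genes in brackets; bars are means, error bars SD over 3 libraries, and points single libraries, with the library labelled DTA-1 replicate 1 as a blue square. The ER chaperone sum ran from 8788 to 9368 in isotype control and from 9141 to 11547 with DTA-1.

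Hspa5 encodes BiP, the ER chaperone that also holds the 3 sensors inactive, and lies on chromosome 2 from 34771970 to 34777547. Its level was 1748, 1873 and 1817 normalised counts in isotype control and 1944, 2529 and 2444 with DTA-1. Every DTA-1 library was above every isotype control library, with replicate 1 nearest to them. The log2 fold change was 0.35 (SE 0.09, 95% interval 0.15 to 0.55), or 27.2% higher, with an unadjusted p of 0.00285 and an adjusted p of 0.627 by edgeR. Without DTA-1 replicate 1 it was 0.46 (SE 0.05), or 37.1% higher, with an adjusted p of 0.00171. This is the gene whose promoter carries the ERSE closest to its start after Syvn1.

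Calr, the calcium-binding lectin chaperone calreticulin, lies on chromosome 8 from 84841850 to 84846934. It measured 694, 705 and 718 normalised counts in isotype control and 709, 1024 and 989.8 with DTA-1. The isotype control libraries were close together, replicate 1 of DTA-1 fell between them, and replicates 2 and 3 were well above. Fitted with all libraries, it was at a log2 fold change of 0.36 (SE 0.11, adjusted p 0.627, edgeR), and at 0.51 (SE 0.05, adjusted p 0.000907) without replicate 1. Its partner Canx, the membrane-bound lectin calnexin, was fitted at 0.15 (SE 0.09) and 0.25 (SE 0.07), with adjusted p of 0.749 and 0.140 by edgeR.

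Hsp90b1, the ER HSP90 that folds integrins and Toll-like receptors, lies on chromosome 10 from 86690209 to 86705509. It stood at 1358, 1536 and 1387 normalised counts in isotype control and at 1411, 1894 and 1819.9 with DTA-1. Only the library labelled DTA-1 replicate 1 overlapped the isotype control range. It was fitted at a log2 fold change of 0.26 (SE 0.10, adjusted p 0.655, edgeR) and 0.38 (SE 0.06, adjusted p 0.0140) without that library.

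The disulphide isomerases differed among themselves. Pdia3, the most abundant, measured 1875, 1949 and 1866 normalised counts in isotype control and 1881, 2096 and 2012 with DTA-1. Its log2 fold change was 0.07 (95% interval −0.06 to 0.21, adjusted p 0.832, edgeR) and 0.11 (adjusted p 0.322) without DTA-1 replicate 1. Pdia4 stood at 486, 515 and 486 normalised counts in isotype control and at 511, 631 and 622 with DTA-1. Pdia6 stood at 712, 767 and 716 in isotype control and at 752, 947 and 902 with DTA-1. Both genes had replicates 2 and 3 above the isotype control libraries and replicate 1 among them. Both were fitted at a log2 fold change of 0.25 and 0.24 (SE 0.08 each, adjusted p 0.627 and 0.632, edgeR). Without replicate 1 both were at 0.34, with adjusted p of 0.0136 and 0.0161.

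Manf, a secreted ER stress protein that binds BiP, lies on chromosome 9 from 106838312 to 106891979. It measured 329, 318 and 334 normalised counts in isotype control and 334, 438 and 407 with DTA-1. The groups did not overlap, but the lowest DTA-1 library exceeded the highest isotype control library by less than 1 normalised count. Its fitted log2 fold change was 0.27 (SE 0.09, adjusted p 0.627, edgeR) and 0.37 (SE 0.06, adjusted p 0.0136) without DTA-1 replicate 1. Rbm15b on the same strand and Dcaf1 on the other overlap Manf, with mean counts of 17.97% and 10.1% of those of Manf. Creld2, a calcium-binding ER protein with disulphide isomerase activity, stood at 136, 137 and 140.4 normalised counts in isotype control and at 133, 182 and 177 with DTA-1. Replicate 1 was below all isotype control libraries and replicates 2 and 3 were above them. Its log2 fold change was 0.25 (SE 0.10, adjusted p 0.657, edgeR), and 0.38 (SE 0.06, adjusted p 0.0140) without replicate 1.

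Hyou1, the large HSP70-related nucleotide exchange factor of BiP, measured 70.7, 79.1 and 93.5 normalised counts in isotype control and 86.7, 114 and 103 with DTA-1. Dnajb9 (ERdj4), the HSP40 cofactor of BiP that represses IRE1, measured 39.4, 46.9 and 37.8 in isotype control and 43.2, 55.3 and 51.5 with DTA-1. In both, replicates 2 and 3 were above the isotype control libraries, which spread more widely than in the abundant chaperones. The log2 fold change was 0.32 (SE 0.12) in Hyou1 and 0.27 (SE 0.12) in Dnajb9, with adjusted p of 0.647 and 0.677 by edgeR. Neither passed without DTA-1 replicate 1, at 0.42 and 0.37, with adjusted p of 0.119 and 0.173. Dnajc3, the BiP cofactor known as P58IPK, was fitted at 0.21 (adjusted p 0.717) with all libraries and at 0.34 (adjusted p 0.0285, edgeR) without replicate 1. Dnajb11 was at 0.13 and Sdf2l1 at 0.07, and neither passed either way, with adjusted p of 0.208 and 0.741 without replicate 1.

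**Figure D3:**
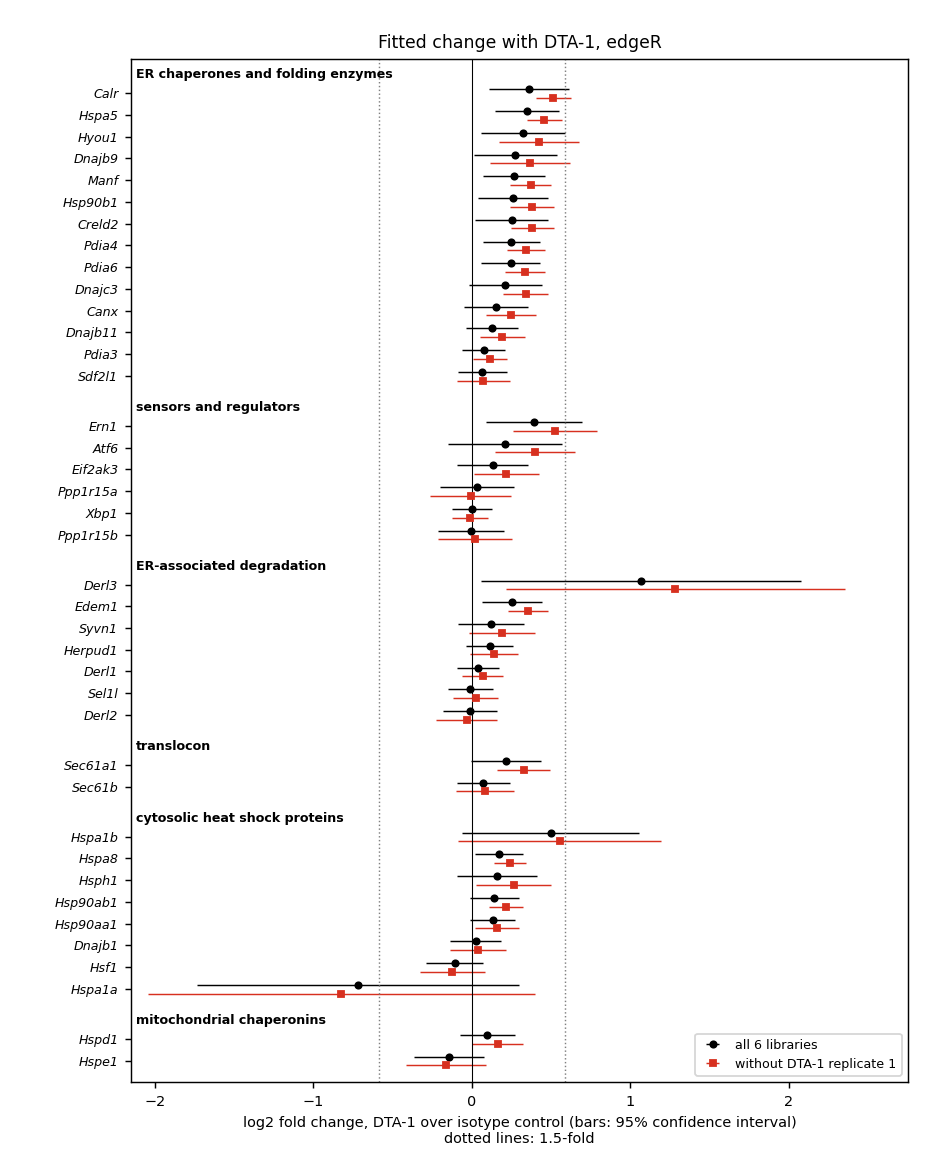
Fitted log2 fold change of each gene with its 95% confidence interval, with all 6 libraries (black circles) and without DTA-1 replicate 1 (red squares); dotted lines mark 1.5-fold. All 14 ER chaperones and folding enzymes are right of 0 in both fits, and Hspa5 moves from 0.35 to 0.46.

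The sensors and regulators gave 5 genes fitted higher and 1 lower, with a median log2 fold change of 0.08, and 0.12 without DTA-1 replicate 1, where none of the 6 had an adjusted p under 0.05. Xbp1, whose spliced form drives secretory genes, lies on chromosome 11 from 5520659 to 5525893. It measured 1107, 1051 and 1067 normalised counts in isotype control and 1093, 1092 and 1041 with DTA-1. The 2 groups lay over each other, and the log2 fold change was 0.00 (SE 0.06, 95% interval −0.13 to 0.13, adjusted p 0.999, edgeR). The sign of this value changed with the scaling and with the libraries left out. Counts per gene do not separate spliced from unspliced Xbp1 mRNA.

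Ern1, the kinase and nuclease that splices Xbp1, was at 48.3, 61.2 and 57.6 normalised counts in isotype control and at 58.9, 73.0 and 87.2 with DTA-1. Replicates 2 and 3 were above all isotype control libraries. Ern1 was fitted at a log2 fold change of 0.39 (SE 0.14, unadjusted p 0.0157, adjusted p 0.632, edgeR), and 0.52 (SE 0.12, adjusted p 0.0662) without replicate 1. Atf6 measured 40.4, 40.1 and 48.6 normalised counts in isotype control and 36.0, 59.7 and 53.5 with DTA-1. Here replicate 1 was the lowest of the 6 libraries and replicates 2 and 3 were the highest. Its log2 fold change was 0.21 (SE 0.16, adjusted p 0.817, edgeR), and 0.40 (SE 0.11, adjusted p 0.142) without replicate 1. Eif2ak3, which encodes PERK, measured 51.8, 47.0 and 50.3 in isotype control and 47.6, 55.3 and 60.4 with DTA-1. It was fitted at a log2 fold change of 0.13 (SE 0.10, adjusted p 0.812, edgeR), and 0.22 (adjusted p 0.328) without replicate 1. Ppp1r15a (GADD34) and Ppp1r15b, which direct the phosphatase that reverses the action of PERK, were fitted at 0.03 (SE 0.11) and −0.01 (SE 0.10), and their groups overlapped.

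In ER-associated degradation, 5 of 7 genes were fitted higher and 2 lower, with a median log2 fold change of 0.11. Without DTA-1 replicate 1 the median was 0.14, and 1 had an adjusted p under 0.05, beside 1.35% of all genes higher. That gene was Edem1, which extracts misfolded glycoproteins from the folding cycle, on chromosome 6 from 108828641 to 108859356. It measured 417, 439 and 452 normalised counts in isotype control and 445, 565 and 548 with DTA-1. Replicate 1 was within the isotype control range and replicates 2 and 3 were above it. The log2 fold change was 0.25 (SE 0.09, adjusted p 0.632, edgeR), and 0.35 (SE 0.06, adjusted p 0.0140) without replicate 1.

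Herpud1, second to Edem1 by normalised count in this group and first per kb, measured 330.3, 295 and 337 normalised counts in isotype control and 333, 353 and 353 with DTA-1. The groups overlapped, and the log2 fold change was 0.11 (SE 0.07, adjusted p 0.751, edgeR), and 0.14 (adjusted p 0.407) without replicate 1. Derl3, a derlin of the retrotranslocation channel, had the largest fitted log2 fold change of the set and the lowest level. It measured 0.707, 0.513 and 0.907 normalised counts in isotype control and 1.00, 2.15 and 1.32 with DTA-1. The groups did not overlap, and the log2 fold change was 1.07 (SE 0.46, 95% interval 0.06 to 2.08, adjusted p 0.675, edgeR). It was the only member with both an unadjusted p under 0.05 and at least 1.5-fold, beside 2.35% of all genes. Without DTA-1 replicate 1 it was fitted at 1.28 (SE 0.48, adjusted p 0.261). Derl1, second in the group per kb, measured 308, 313 and 294 normalised counts in isotype control and 301, 327 and 313 with DTA-1, and the groups overlapped. Derl1, Derl2, Sel1l and Syvn1 lay between −0.01 and 0.12 on the log2 scale, and Mis12 and Mrpl49, which overlap Derl2 and Syvn1 on the other strand, had mean counts of 48.6% and 30.3% of theirs.

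Both translocon genes, which build the channel through which nascent proteins enter the ER, were fitted higher. Sec61a1, the channel itself, measured 557, 649 and 585 normalised counts in isotype control and 585, 785 and 712 with DTA-1. Its log2 fold change was 0.22 (SE 0.10, adjusted p 0.692, edgeR), and 0.33 (SE 0.07, adjusted p 0.0680) without DTA-1 replicate 1. Sec61b measured 219, 193 and 201 in isotype control and 211, 233 and 201 with DTA-1. The groups of both genes overlapped, and Sec61b was fitted at 0.07 (SE 0.08, adjusted p 0.872, edgeR).

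Of the 8 cytosolic heat shock genes, 6 were fitted higher and 2 lower, with a median log2 fold change of 0.14, and 0.19 without DTA-1 replicate 1. Their summed level was 4290.0, 4300.3 and 4208 normalised counts in isotype control and 4306, 4976 and 4939 with DTA-1. These sums did not overlap, although replicate 1 exceeded the highest isotype control library by little. In each of the 8 genes taken singly the groups overlapped. Replicate 1 lay above every isotype control library in 0 of them and below every one in 2. Hspa8, on chromosome 9 from 40800984 to 40810087, carried most of the summed level. It measured 2601, 2631 and 2513 normalised counts in isotype control and 2625, 3064 and 3031 with DTA-1. The log2 fold change was 0.17 (SE 0.07, unadjusted p 0.0321, adjusted p 0.657, edgeR), and 0.24 (SE 0.05, adjusted p 0.0333) without replicate 1. Hsp90ab1, the constitutive cytosolic HSP90, measured 1041, 1037 and 1021 normalised counts in isotype control and 1020.2, 1200.1 and 1199 with DTA-1. Replicate 1 was the lowest of the 6 libraries, and the log2 fold change was 0.14 (SE 0.07, adjusted p 0.722, edgeR), and 0.22 (SE 0.05, adjusted p 0.0572) without it. Its inducible relative Hsp90aa1 was fitted at 0.13 (SE 0.06) and the HSP110 gene Hsph1 at 0.16 (SE 0.11), with adjusted p of 0.717 and 0.789 by edgeR.

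Hsf1, the transcription factor of the heat shock response, measured 83.6, 78.5 and 83.7 normalised counts in isotype control and 77.5, 69.2 and 81.3 with DTA-1. The groups overlapped, and the log2 fold change was −0.11 (SE 0.08, adjusted p 0.805, edgeR), and −0.12 (adjusted p 0.607) without DTA-1 replicate 1. Dnajb1, an HSP40 cofactor and a classical HSF1 target, was fitted at 0.02 (SE 0.07, 95% interval −0.14 to 0.18). The strictly inducible HSP70 genes Hspa1a and Hspa1b lie side by side on chromosome 17, from 34969190 to 34972156 and from 34956436 to 34959238. They are nearly identical, and their reads could be divided between them by the counting, so that neither value is certain on its own. Hspa1a measured 3.42, 1.29 and 5.67 normalised counts in isotype control and 2.40, 2.39 and 1.51 with DTA-1. Hspa1b measured 4.83, 4.03 and 7.55 in isotype control and 7.09, 9.17 and 6.90 with DTA-1. The fitted changes had opposite signs, at −0.72 (SE 0.46) and 0.50 (SE 0.25). The sum of both was 8.26, 5.32 and 13.2 normalised counts in isotype control and 9.49, 11.6 and 8.41 with DTA-1. All DTA-1 values of the sum lay within the isotype control range, and its log2 fold change was 0.14 (SE 0.29, 95% interval −0.49 to 0.77, adjusted p 0.947, edgeR).

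The mitochondrial chaperonins, which fold proteins imported into the matrix, had fitted values of opposite sign. Hspd1 (HSP60) measured 157, 178 and 173 normalised counts in isotype control and 164, 184 and 195 with DTA-1. Its partner Hspe1 (HSP10) measured 57.8, 51.0 and 52.5 in isotype control and 50.2, 52.9 and 43.1 with DTA-1. The groups overlapped in both. The log2 fold change was 0.10 (SE 0.08, adjusted p 0.828) in Hspd1 and −0.14 (SE 0.10, adjusted p 0.785, edgeR) in Hspe1, and 0.16 and −0.16 without DTA-1 replicate 1 (adjusted p 0.350 and 0.570). These genes share the promoter region shown above and overlap at their 5′ ends on opposite strands, and whether strand was used in counting is not given in the sources used here.

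Set against the promoter elements, the 9 genes with an ERSE were all fitted higher with DTA-1, with a median log2 fold change of 0.25. Without DTA-1 replicate 1 the median was 0.38, and 6 of the 9 had an adjusted p under 0.05 by edgeR (Hspa5, Calr, Hsp90b1, Pdia6, Dnajc3 and Creld2). At that threshold 1.35% of all genes were higher. Of the 20 matched members with no ERSE in the window, 16 were fitted higher, with medians of 0.09 and 0.13, and 2 had an adjusted p under 0.05 without replicate 1. Another 9 genes tested that carry an ERSE but are not in the set had 4 fitted higher, with a median of −0.00, and −0.07 without replicate 1, where none had an adjusted p under 0.05. Hspd1, Hspe1 and Hsph1, which hold a heat shock element, were at 0.10, −0.14 and 0.16. These values describe the genes and were not tested as groups. The members with an ERSE were ER chaperones or folding enzymes except Derl3 and Syvn1, and most matched members without one had other roles. The element and the role thus largely went together. Within the ER chaperones and folding enzymes, Pdia3, Pdia4, Dnajb9, Dnajb11 and Sdf2l1 were matched without an ERSE. They were fitted at 0.07, 0.25, 0.27, 0.13 and 0.07 with all 6 libraries. Those of this role with an ERSE ranged from 0.15 (Canx) to 0.36 (Calr). Outside it, Derl3 and Syvn1 were at 1.07 and 0.12. The part of the element and that of the role were not tested. The members without an ERSE include Herpud1 and Dnajb11, which hold ERSE-II.

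Other genes of the same pathways, in 7 lists with 153 genes in all, placed the set in context. Among 34 other ER chaperones and ER-associated degradation genes tested, 31 were fitted higher and 3 lower, with a median log2 fold change of 0.09. At an unadjusted p under 0.05, 4 were higher and 0 lower, beside 4.11% and 3.11% of all genes. P4hb, the abundant protein disulphide isomerase, measured 1128, 1183 and 1189.7 normalised counts in isotype control and 1219.7, 1456 and 1384 with DTA-1. Its groups did not overlap, and it was fitted at 0.21 (SE 0.07, adjusted p 0.627, edgeR), and at 0.28 (adjusted p 0.0267) without replicate 1. Pdia5, another isomerase, measured 16.99, 12.1 and 14.2 in isotype control and 16.7, 29.1 and 23.7 with DTA-1. Its log2 fold change was 0.68 (SE 0.20, adjusted p 0.627, edgeR), and 0.87 (adjusted p 0.0360) without replicate 1. Pdia5 was the 1 gene of this list that was called there, beside 0.744% of all genes. In that fit 3 genes of the list were higher at an adjusted p under 0.05, beside 1.35% of all genes. The smallest adjusted p was 0.00813 by edgeR. Hspa13, an ER-associated HSP70, was fitted at 0.30 (SE 0.08, adjusted p 0.627, edgeR) with all 6 libraries.

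Of 33 genes of translocation and N-glycosylation, 27 were fitted higher and 6 lower, with a median log2 fold change of 0.10. At an unadjusted p under 0.05, 5 were higher and 0 lower, beside 4.11% and 3.11% of all genes. Srp54a, a subunit of the signal recognition particle, was fitted at 0.25 (SE 0.09), and at 0.35 (adjusted p 0.0366, edgeR) without DTA-1 replicate 1. Rpn1 and Stt3a, subunits of the oligosaccharyltransferase, were both fitted at 0.18 (SE 0.07), with adjusted p of 0.0835 and 0.127 without that library. In that fit 2 genes of the list were higher at an adjusted p under 0.05, beside 1.35% of all genes. The smallest adjusted p was 0.0105 by edgeR, in a gene not named here. Of 13 regulators of the ATF6 and IRE1 pathways, 10 were fitted higher and 3 lower, with a median of 0.07. Creb3l2, a membrane-bound transcription factor of the secretory pathway, was at 0.35 (SE 0.10), and at 0.45 (adjusted p 0.0188, edgeR) without replicate 1. Traf2, which binds activated IRE1 and also TNF receptor family members, was at 0.31 (SE 0.11), and at 0.44 (adjusted p 0.0290) without it. Tmbim6 was at 0.15 (SE 0.06).

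In the PERK-ATF4 branch the values lay on both sides of 0. Of its 15 genes, 7 were fitted higher and 8 lower, with a median of −0.03. At an unadjusted p under 0.05, 0 were higher and 2 lower, beside 4.11% and 3.11% of all genes. Sesn2, a stress-induced inhibitor of mTORC1 signalling, measured 162, 162 and 160.0 normalised counts in isotype control and 147, 135 and 149 with DTA-1. Its groups did not overlap, and the log2 fold change was −0.17 (SE 0.06, adjusted p 0.653, edgeR). Cebpb was fitted at −0.28 (SE 0.11, adjusted p 0.656). The groups also did not overlap in Chac1 and Eif2s1, both higher with DTA-1 and named after their values were seen. They were fitted at 0.17 (SE 0.12, adjusted p 0.785) and 0.08 (SE 0.06, adjusted p 0.787, edgeR). Of all genes tested, 5.29% were higher and 6.04% lower without overlap. The highest fitted value of the list was 1.06, in Vldlr (SE 0.68, adjusted p 0.764). None of the 15 had an adjusted p under 0.05 without DTA-1 replicate 1. The other lists also held genes without overlap. They were 4 higher of 8 TRiC subunits, 2 higher and 2 lower of 13 ATF6 and IRE1 regulators, and 4 higher and 2 lower of 32 other cytosolic chaperones. The lists of other ER chaperones and of translocation held 2 higher each, and the mitochondrial list 1 higher and 1 lower.

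The other cytosolic chaperones and HSF1 targets were evenly divided, with 16 of 32 higher and 16 lower and a median of −0.00. Of these, 2 were higher and 2 lower at an unadjusted p under 0.05, beside 4.11% and 3.11% of all genes. Dnaja1, an HSP40 cofactor of Hspa8, was at 0.18 (SE 0.06) and Bag3, a nucleotide exchange factor and HSF1 target, at −0.26 (SE 0.11). Serpinh1, the ER chaperone of collagen, measured 2.91, 2.31 and 3.77 normalised counts in isotype control and 0, 0.0320 and 1.51 with DTA-1. Fibroblast markers were low in the same libraries. The 4 of 6 that were tested were all fitted lower, and the list summed to 2.20 to 8.39 normalised counts in isotype control and to 0 to 3.98 with DTA-1, a part in the Serpinh1 value that was not tested. All 8 TRiC subunits, which form the cytosolic chaperonin, were fitted higher, with a median of 0.11. At an unadjusted p under 0.05, 3 were higher and 0 lower, beside 4.11% and 3.11% of all genes. They were Tcp1 at 0.19 (SE 0.07), Cct6a at 0.15 (SE 0.06) and Cct8 at 0.15 (SE 0.06). Of 14 mitochondrial chaperones and proteases, 9 were fitted higher and 5 lower, with a median of 0.03. Grpel2 was at −0.39 (SE 0.13), and the proteases Afg3l2 and Yme1l1 were at 0.21 each (SE 0.07 and 0.09).

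**Figure D4:**
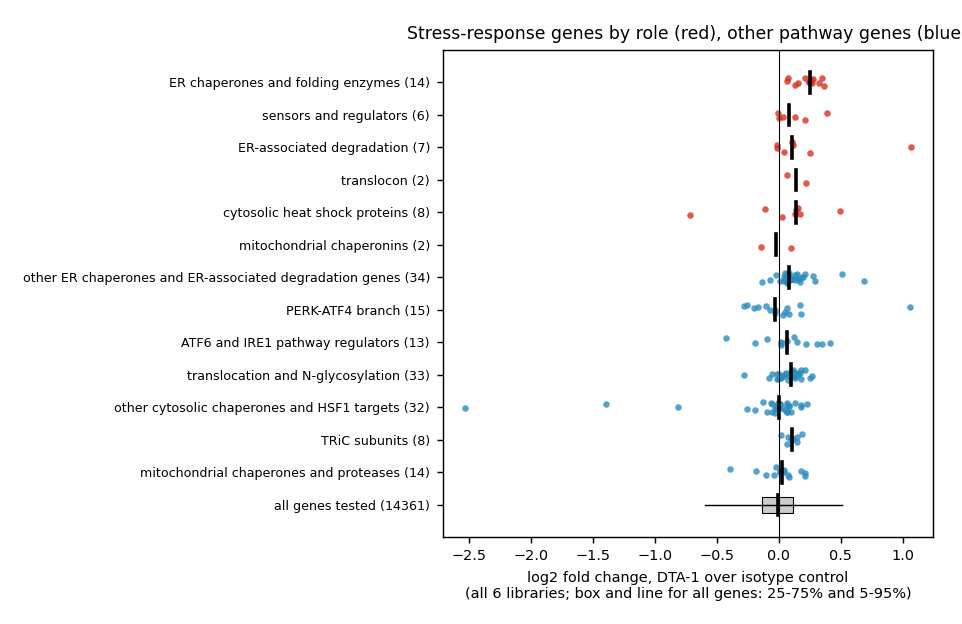
Fitted log2 fold change with all 6 libraries for the 39 genes by role (red) and for the 7 lists of other pathway genes (blue), with the number of genes tested in brackets and black ticks at the medians; for all genes tested the box spans the middle 50% of genes and the line 5% to 95%. The ER chaperones have a median of 0.25, the PERK-ATF4 branch −0.03 and all genes −0.01.

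Some other gene lists also differed in DTA-1 replicates 2 and 3, while T cell and B and plasma cell markers lay within the isotype control range. The ILC2 markers summed to 10796 normalised counts in the library labelled DTA-1 replicate 1 and to 14511 and 13750.4 in replicates 2 and 3, with 4 of 10 fitted higher and 6 lower. The early genes linked to cell dissociation (Fos, Fosb, Jun, Junb, Egr1, Atf3, Dusp1 and Ier2) summed to 669, 621 and 681 normalised counts in isotype control and to 687, 959.5 and 956 with DTA-1. Of the 7 tested, 5 were fitted higher and 2 lower. Mast cell and basophil markers summed to 6.41 to 10.8 normalised counts in isotype control and to 8.77 to 22.2 with DTA-1, and endothelial markers to 18.4 to 24.4 and to 10.6 to 18.3. T cell markers summed to 39.8 to 53.1 and to 44.9 to 49.97 normalised counts, and B and plasma cell markers to 12.1 to 16.2 and to 12.3 to 14.8. Macrophage markers summed to 2.31 to 4.28 and to 1.20 to 4.14, and those of neutrophils, adipocytes and mesothelial cells summed to at most 0.454 in every library. The part of these genes in the chaperone values was not tested.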

How the data were processed

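RNA-seq of mouse VAT ILC2s cultured with DTA-1 or isotype control was analysed, with 3 libraries per group. Per the submitters' processing notes, bcl2fastq 2.17.1.14, STAR 2.5.3a, Partek and mm10 were used; the annotation release, strand setting and parameters are not given in the sources used here. The authors deposited expected counts per gene, without normalization, of which 81.137% were whole (tolerance 0.001). They were rounded before fitting.

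The members and lists were chosen with earlier results of these data known. DTA-1 was compared with isotype control over all 6 libraries, with no covariate, in R 4.3.3 by edgeR 4.0.16 (filterByExpr by group, TMM, robust quasi-likelihood F test, Benjamini-Hochberg over 14361 genes). A call needed an adjusted p under 0.05 and 1.5-fold. Standard errors were derived from each fitted change and the F value of its test. Intervals have a 95% level; count limits cover counting error only. Levels per kb used the union of exons in GENCODE mouse release M21, whose coordinates (GRCm38) equalled the table's for 38 of 39 members, all but Creld2. Promoters came from RefSeq (GRCm38.p6).

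Values per library are given for the sensors and transcription factors, the 2 most abundant members of each role, members with an unadjusted p under 0.05 or without overlap, and Hspa1a and Hspa1b. Other pathway genes are named if their unadjusted p was under 0.05, at most 3 per list. Alternatives were DESeq2 1.42.0 (size factors, Wald test), limma 3.58.1 (limma-trend, prior count 2), total counts, no filter, a minimum of 10 counts in each of the libraries, a block for the replicate number, omission of each library in turn, no fold limit and an unadjusted p; the count of directions without DTA-1 replicate 1, and the fold limit dropped in the other alternatives, were added after seeing the data. Simulated data with known changes were used to check the edgeR step. Python 3.11.15, pandas 2.3.3, numpy 2.4.6 and matplotlib 3.10.9 were used.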

Additional observations from a re-analysis of the deposited data

How the results depend on the processing

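No member was called under any scaling, filter, tool, block or omission of a library tried, and 1 (Derl3) was counted with an unadjusted p under 0.05 and 1.5-fold. Over all genes the count of calls was 0, and it was 2 with no filter (Ctgf and Pdgfra), 1 with the replicate number as a block (Chil3), 20 by DESeq2's Wald test, 337 at the unadjusted p, and 0 to 111 with 1 library left out, 111 being without DTA-1 replicate 1. With no fold limit the number of genes at an adjusted p under 0.05 was 0, then 2 with no filter, 1 with the block, 23 by DESeq2 and 253 without DTA-1 replicate 1, where 10 were members. The median log2 fold change of the 39 genes was 0.14, and 0.11 to 0.22 with 1 library left out, 0.22 being without DTA-1 replicate 1. It was 0.10 with total counts and 0.14 with the block. The replicate numbers did not pair the samples (correlations of same-numbered deviations −0.01, −0.00 and 0.02).

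Of 768 values for 59 named genes under the alternatives, 745 kept their direction and side of the threshold. Pdia5 passed without DTA-1 replicate 1 (0.87). In 7 genes, none with an unadjusted p under 0.05, the sign turned in 22 values. With total counts the log2 fold change was −0.036 in Xbp1, −0.0022 in Ppp1r15a and −0.013 in Dnajb1. That of Xbp1 was −0.0015 with no filter and −0.00038 with at least 10 counts in every library. With 1 library left out, Xbp1 ranged from −0.016 to 0.026, Ppp1r15a from −0.033 to 0.11, Ppp1r15b from −0.083 to 0.057, Sel1l from −0.041 to 0.025, Derl2 from −0.068 to 0.058 and Dnajb1 from −0.024 to 0.063. Hspa1a was at 0.14 as the sum with Hspa1b. The cause was not tested.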
